A study of Mus musculus with 10 samples.

Results

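The lysosomal cathepsins and lysosome-associated membrane proteins described here are 10 genes, Ctsa, Ctsb, Ctsc, Ctsd, Ctsh, Ctsl, Ctss, Ctsz, Lamp1 and Lamp2, taken by gene symbol from the 24062 genes listed for each pancreas library. All 10 were found and all 10 passed the low-count filter. The libraries came from the pancreas of 5 WT and 5 KSR23 mice of the C57BL/6 strain at postnatal day 5 (P5), and each labelled replicate was 1 library. KSR23 mice carry the R23 cassette, in which both IL-23 subunits (p19 and p40) sit in the ROSA26 locus behind a floxed STOP signal, together with Cre recombinase driven by the keratin 14 (K14) promoter, which is active in keratinocytes. WT mice are wild-type animals of the same strain and age, which the authors describe as control littermates. The labels give the genotype of the other mice as KSR23+. The comparison asks which lysosomal transcripts differ in the neonatal pancreas when IL-23 is expressed from keratinocytes.

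Cathepsins are proteases that mature and work in the acid lumen of the lysosome, and the LAMP proteins are the most abundant glycoproteins of its limiting membrane. In the acinar cell of the pancreas, cathepsin B can cut trypsinogen to active trypsin, whereas cathepsin L cuts trypsin and trypsinogen to inactive forms, so these enzymes have long been studied in pancreatitis. In antigen-presenting cells, cathepsin S trims the invariant chain from MHC class II molecules, and several other cathepsins are abundant in macrophages. Lysosomal genes can be switched on together by the transcription factor Tfeb, which binds a palindromic DNA element with the core CACGTG.

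Promoter sequences were listed for 8 of the 10 genes in the RefSeq table for GRCm38.p6, the assembly that mm10 names, and each window covers 250 bases before to 50 bases after a start site that the table lists. Such a site can lie inside the gene span that GENCODE gives, as for Ctsl, Ctsd and the second of the 2 sites of Ctsa. Ctsb and Ctsh had no entry in the RefSeq table, so their promoters were not searched for any motif. The 8 genes with an entry had 9 windows in all. The core CACGTG, which reads the same on both strands, was present in 4 of the 9, each from a different gene, compared with 7.15% of all 32851 windows. Lamp1 held 4 matches, Ctsd and the second Ctsa window 2 each, and Ctsl 1, while the first Ctsa window held 0. The longer Tfeb-type element, the same core with GT before it and AC after it, was in 0 of the 9 and in 0.326% of all windows. An interferon-response type motif, GAAA followed after any 2 bases by another GAAA on either strand, was found once each in Ctss and Lamp1, and in 3.44% of all windows. A STAT-type motif, TTCNNNGAA, was found once, in Ctsc, and in 8.30% of all windows. A match is a description of letters in the window, not a binding site. The stretches below are shown because they let the promoter of Lamp1, with the most core matches, be set against those of genes that changed more. Each is written 5′ to 3′ on the strand of the gene, with the CACGTG core in capitals, or the GAAA repeat with its spacer in the case of Ctss. The Lamp1 stretch is chr8:13159080-13159160 on the plus strand, the Ctsd stretches are chr7:142388047-142388077 and chr7:142387900-142387945 on the minus strand, the Ctsa stretch (1 of its 2 matches) is chr2:164833741-164833772 on the plus strand, the Ctsl stretch is chr13:64370731-64370770 on the minus strand and the Ctss stretch is chr3:95526745-95526785 on the plus strand.
Lamp1: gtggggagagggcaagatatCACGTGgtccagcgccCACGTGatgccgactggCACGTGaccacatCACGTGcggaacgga
Ctsd, distal: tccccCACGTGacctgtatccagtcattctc
Ctsd, proximal: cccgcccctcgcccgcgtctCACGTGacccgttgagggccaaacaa
Ctsa: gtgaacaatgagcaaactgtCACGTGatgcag
Ctsl: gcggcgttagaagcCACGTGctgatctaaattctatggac
Ctss: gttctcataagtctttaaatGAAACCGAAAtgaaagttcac

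The deposited values are raw read counts per gene. Gene counts summed to 26830235 to 33189132 in the WT libraries and to 16715976 to 57784136 in the KSR23 libraries, of which KSR23 replicate 3 was the smallest. Alignments that were not unique made up 49.6% to 53.7% of all tallied in WT and 38.5% to 42.5% in KSR23. On the second principal component of log2 CPM, KSR23 replicate 3 scored 33.4 and the other KSR23 libraries scored from -13.3 to -2.31. The tissue label was checked with 10 acinar markers, which took 11.8% to 18.6% of the gene counts in every library. Reads of Il23a, the p19 subunit, were near the limit of detection in WT (0.179 ± 0.102 CPM, SD, n = 5) and higher in KSR23 (1.07 ± 0.138 CPM, n = 5, two-sided exact permutation test, p = 0.00794). Il12b, the p40 subunit, was at 0.068 ± 0.1 and 0.186 ± 0.0933 CPM and the groups overlapped (exact permutation test, p = 0.0952).

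Transcripts of 8 of the 10 genes were higher in KSR23 pancreas and none was lower. The 8 were Ctss, Ctsl, Ctsh, Ctsb, Ctsa, Lamp2, Ctsd and Ctsz, with rises from 1.13-fold to 3.29-fold, while Ctsc and Lamp1 did not pass the test. Across the 13882 genes tested with edgeR (quasi-likelihood test, Benjamini-Hochberg adjustment), 31.0% were called at an adjusted p under 0.05, 16.2% as higher and 14.8% as lower. For the same 8 genes every KSR23 mouse was above every WT mouse, which was so for 10.7% of all tested genes, and 0 of the 10 had every KSR23 mouse below every WT mouse, which was so for 8.74%. The median log2 FC (KSR23 over WT) of the 10 genes was 0.34, beside -0.01 over all tested genes. These are bulk libraries, so more cells of a type and more RNA per cell cannot be told apart. The values below are read counts scaled to a common library size (CPM, counts per 1e6 reads) on TMM-scaled library sizes.

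**Figure D1:**
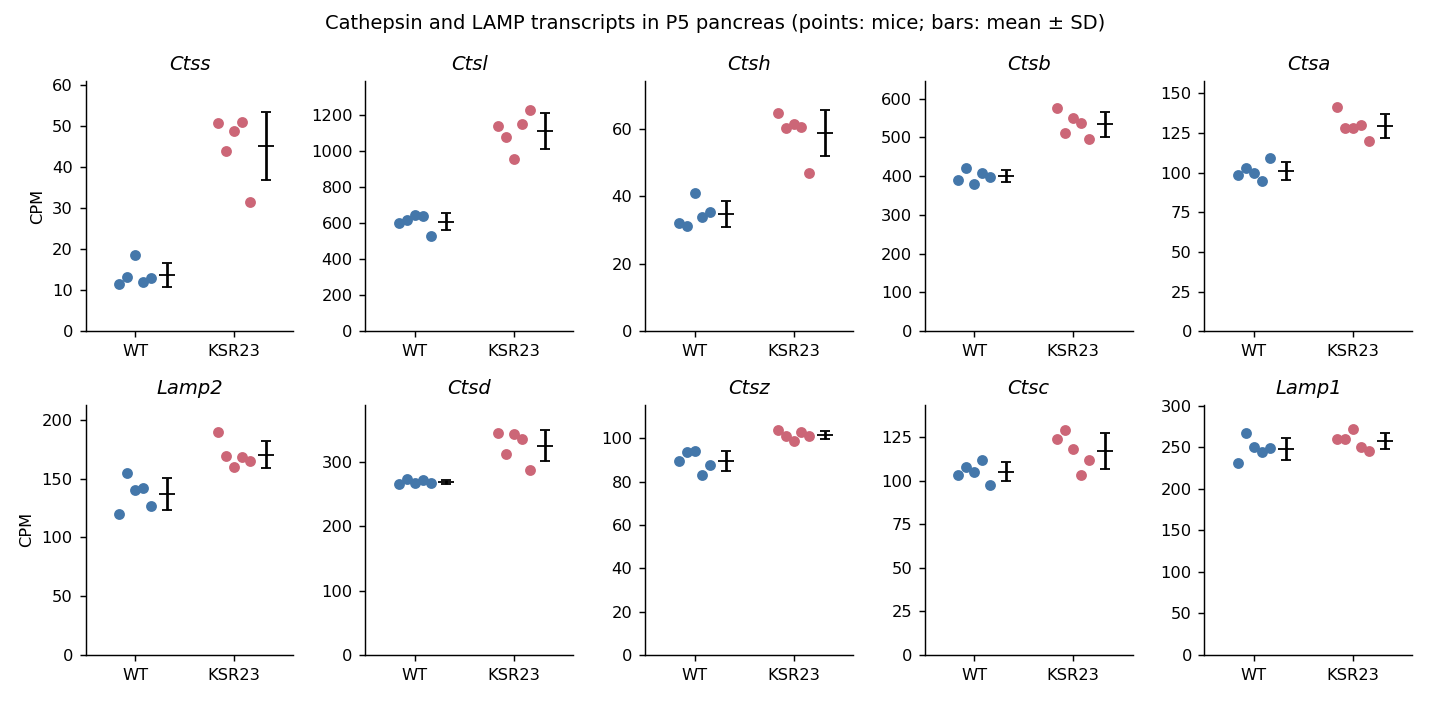
CPM of the 10 genes in each of the 5 WT and 5 KSR23 mice, in panels ordered by log2 FC with each vertical axis starting at 0; points are mice and bars give the mean ± SD. The groups are apart for 8 genes, most widely for Ctss, and overlap for Ctsc and Lamp1.

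Cathepsin L, a cysteine endopeptidase, had the most abundant transcript of the 10. In WT replicates 1 to 5, Ctsl stood at 604, 620, 645, 640 and 528 CPM. In KSR23 replicates 1 to 5 it stood at 1140, 1082, 958, 1151 and 1229 CPM. Every KSR23 mouse was well above the highest WT mouse. The means were 607 ± 47.2 CPM in WT and 1112 ± 101 CPM in KSR23 (SD, n = 5 each), a log2 FC of 0.87 ± 0.0831 (SE) or 1.83-fold (edgeR adjusted p = 2.79e-07). Ctsl lies at chr13:64359337-64370890 on the minus strand (GRCm38, GENCODE M21), and all 75-base windows of its transcript were unique to it.

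Cathepsin B, the cysteine protease known to activate trypsinogen, rose less. Ctsb was at 390, 421, 381, 409 and 399 CPM in WT replicates 1 to 5, a narrow range. It was at 577, 511, 551, 537 and 495 CPM in KSR23 replicates 1 to 5. The lowest KSR23 mouse, replicate 5, was above the highest WT mouse, replicate 2. The means of 400 ± 15.5 and 534 ± 32.3 CPM (SD, n = 5 each) gave a log2 FC of 0.42 ± 0.0646 (SE), with a 95% interval from 0.28 to 0.55, or 1.34-fold (edgeR adjusted p = 8.22e-05). Ctsb lies at chr14:63122462-63145923 on the plus strand. It overlaps Fdft1, a squalene synthase gene on the other strand, by 774 bases, and 85% of its windows were unique. Reads were counted by strict intersection with transcript models, but the strand setting is not given in the sources used here, so reads of the overlap cannot be assigned to either gene from this information. Fdft1 itself fell, from 62.6 ± 5.67 to 37 ± 5.26 CPM, with a log2 FC of -0.76 (edgeR adjusted p = 7.37e-06), opposite in direction to Ctsb.

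The balance of both transcripts was compared within each mouse, a value that does not depend on how libraries are scaled. The log2 ratio of Ctsb to Ctsl was -0.63, -0.56, -0.76, -0.64 and -0.41 in WT replicates 1 to 5. In KSR23 replicates 1 to 5 it was -0.98, -1.08, -0.80, -1.10 and -1.31. All KSR23 ratios were below all WT ratios, although KSR23 replicate 3 and WT replicate 3 were close. The mean fell by 0.45 on the log2 scale, from -0.60 ± 0.130 to -1.05 ± 0.187 (SD, n = 5 each), which corresponds to 0.66 Ctsb reads per Ctsl read in WT and 0.482 in KSR23 (two-sided exact permutation test over 252 splits, p = 0.00794, the lowest value possible with groups of 5). Both transcripts thus rose in KSR23, and Ctsl rose more.

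**Figure D2:**
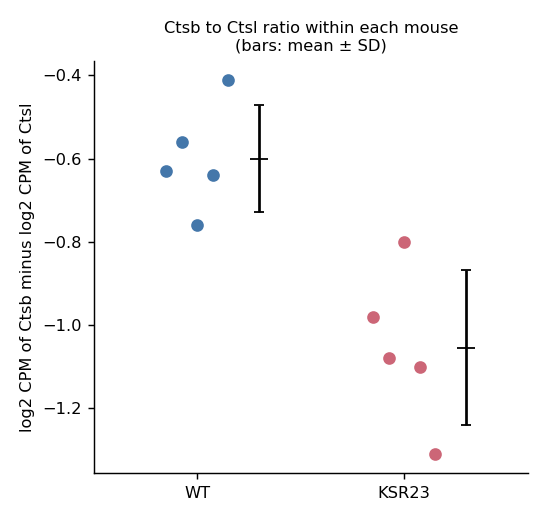
The log2 CPM of Ctsb minus that of Ctsl in each of the 5 WT and 5 KSR23 mice; points are mice and bars give the mean ± SD. The WT mice sit between -0.76 and -0.41 and the KSR23 mice between -1.31 and -0.80, without overlap.

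Cathepsin S, the invariant chain protease of antigen-presenting cells, had the lowest level of the 10 in WT and the largest rise. Ctss was at 11.6, 13.2, 18.6, 12.1 and 13 CPM in WT replicates 1 to 5. It was at 50.7, 43.9, 48.8, 50.9 and 31.4 CPM in KSR23 replicates 1 to 5. The groups were far apart, with WT replicate 3 the highest WT mouse and KSR23 replicate 5 the lowest KSR23 mouse. The means were 13.7 ± 2.83 and 45.2 ± 8.18 CPM (SD, n = 5 each), a log2 FC of 1.72 ± 0.138 (SE), with a 95% interval from 1.43 to 2.01, or 3.29-fold (edgeR adjusted p = 3.09e-08). Ctss lies at chr3:95526786-95556403 on the plus strand and overlaps no other annotated gene. Its promoter and that of Lamp1 held the GAAA repeat described above.

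Cathepsin H, an aminopeptidase, was at 32.2, 31.3, 41.1, 33.9 and 35.4 CPM in WT replicates 1 to 5. In KSR23 replicates 1 to 5 it was at 64.9, 60.3, 61.5, 60.7 and 46.9 CPM. As for Ctss, WT replicate 3 was the highest of its group and KSR23 replicate 5 the lowest of its group, and the groups did not overlap. The means of 34.8 ± 3.86 and 58.8 ± 6.92 CPM (SD, n = 5 each) gave a log2 FC of 0.76 ± 0.0924 (SE) or 1.69-fold (edgeR adjusted p = 5.69e-06). Ctsh lies at chr9:90054152-90076089 on the plus strand.

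Cathepsin D, the aspartic protease of the lysosome, ranged from 265 to 273 CPM over the WT mice and from 288 to 345 CPM over the KSR23 mice, without overlap. Its means of 269 ± 3.59 and 325 ± 24.1 CPM (SD, n = 5 each) gave a log2 FC of 0.27 ± 0.0627 (SE) or 1.21-fold (edgeR adjusted p = 0.00308). The KSR23 mouse nearest to WT was again replicate 5. Only 64.2% of the windows of Ctsd (chr7:142375911-142388038, minus strand) were unique, the others being shared with Gm49369, a predicted gene on the same strand whose symbol is not among the 24062 analysed here. Cathepsin A, the serine carboxypeptidase that also protects neuraminidase and beta-galactosidase, rose from 101 ± 5.58 to 129 ± 7.66 CPM (SD, n = 5 each), a log2 FC of 0.36 ± 0.0641 or 1.28-fold (edgeR adjusted p = 0.000368). WT mice ranged from 94.4 to 109 CPM and KSR23 mice from 120 to 141 CPM. Ctsa (chr2:164832873-164841032, plus strand) overlaps Pltp by 495 bases and Neurl2 by 324 bases on the other strand, and 80.2% of its windows were unique. Pltp, a phospholipid transfer protein gene, was higher as well, with a log2 FC of 0.52 (edgeR adjusted p = 0.000734), while Neurl2 had a log2 FC of 0.25 (edgeR adjusted p = 0.552) at under 1 CPM.

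Cathepsin Z, a carboxypeptidase, showed a small rise. It was at 83.3 to 94.3 CPM in the WT mice and 98.9 to 104 CPM in the KSR23 mice, with means of 89.7 ± 4.56 and 102 ± 2 CPM (SD, n = 5 each). The log2 FC of 0.18 ± 0.0593 (1.13-fold) had an edgeR adjusted p of 0.0275. This call was lost when WT replicate 4 (adjusted p = 0.0812), WT replicate 5 (0.061), KSR23 replicate 1 (0.0602) or KSR23 replicate 4 (0.0543) was left out of the edgeR fit. Ctsz lies at chr2:174427493-174439039 on the minus strand.

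Cathepsin C, the dipeptidyl peptidase that matures granule proteases of neutrophils, mast cells and cytotoxic cells, did not pass the test. It was at 103, 108, 105, 112 and 97.6 CPM in WT replicates 1 to 5 and at 124, 129, 118, 103 and 112 CPM in KSR23 replicates 1 to 5. The groups overlapped, since KSR23 replicate 4 lay within the WT range. The log2 FC was 0.16 ± 0.0692, with a 95% interval from 0.01 to 0.30 (edgeR adjusted p = 0.0898), and without KSR23 replicate 4 it was 0.20 and passed (edgeR adjusted p = 0.0361). Ctsc lies at chr7:88278085-88310888 on the plus strand.

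The LAMP genes differed from each other. Lamp1, at chr8:13159161-13175338 on the plus strand, was at 231, 267, 251, 244 and 249 CPM in WT replicates 1 to 5 and at 260, 260, 272, 251 and 246 CPM in KSR23 replicates 1 to 5. The groups overlapped, WT spanning 231 to 267 CPM and KSR23 246 to 272 CPM, and the log2 FC was 0.05 ± 0.0600, with a 95% interval from -0.07 to 0.18 (edgeR adjusted p = 0.53). Lamp1 overlaps Grtp1 on the other strand by 249 bases, and 95.1% of its windows were unique. Lamp1 was the gene with 4 CACGTG cores in its promoter. Lamp2, whose products take part in the fusion of autophagosomes with lysosomes and in chaperone-mediated autophagy, was at 120, 155, 140, 142 and 127 CPM in WT and at 190, 169, 160, 168 and 165 CPM in KSR23. The lowest KSR23 mouse was just above the highest WT mouse. Its log2 FC was 0.32 ± 0.0741 or 1.25-fold (edgeR adjusted p = 0.00326). Lamp2 lies at chrX:38401357-38456454 on the minus strand, where no other annotated gene overlaps it.

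**Figure D3:**
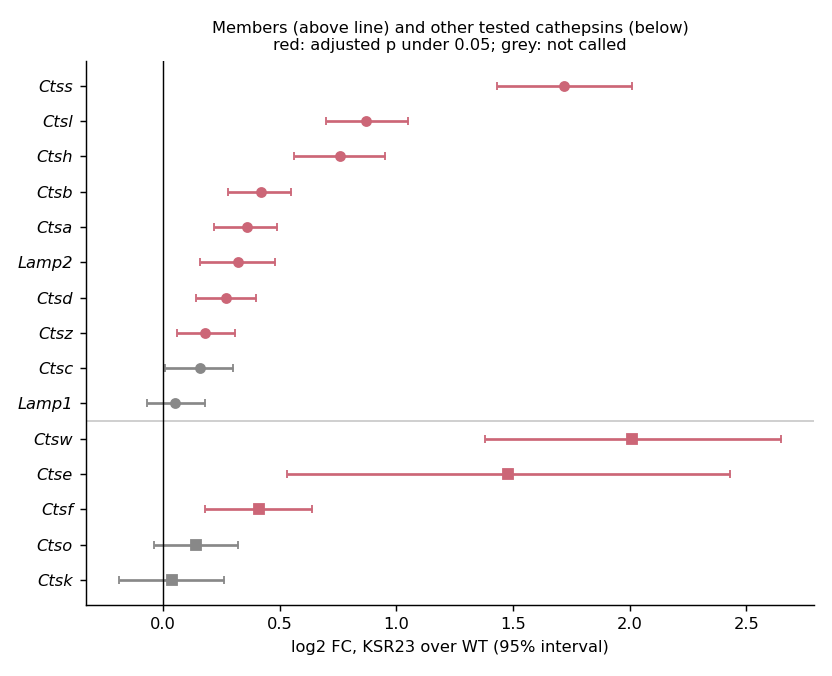
The log2 FC of KSR23 over WT with its 95% interval from edgeR's quasi-likelihood fit, for the 10 genes above the line (circles) and the 5 other cathepsins that could be tested below it (squares); red marks an adjusted p under 0.05. Among the 10, the values run from 1.72 for Ctss to 0.05 for Lamp1.

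Levels between the genes were compared after division by transcript length. In WT, Ctsl led with 308 ± 24.0 CPM per kb (SD, n = 5), followed by Ctsd at 126 ± 1.69, Lamp1 at 111 ± 5.86, Ctsb at 84.3 ± 3.28 and Ctsz at 62.2 ± 3.16 CPM per kb. Ctsa, Lamp2 and Ctsc came next at 39.9, 37.9 and 32.6 CPM per kb, and within this trio neighbours overlapped between mice. Ctsh at 21.5 ± 2.39 and Ctss at 10.1 ± 2.09 CPM per kb closed the order. In KSR23, Ctsl at 564 ± 51.2 and Ctsd at 153 ± 11.3 CPM per kb again came first. The neighbours Lamp1 at 116 ± 4.39 and Ctsb at 113 ± 6.81 CPM per kb, which were apart in WT, overlapped between the KSR23 mice, as did Ctsa and Lamp2. Ctsc and Ctsh were level in KSR23, at 36.4 ± 3.13 and 36.4 ± 4.28 CPM per kb, and Ctss at 33.3 ± 6.04 overlapped both. Summed over the 10 genes, CPM ran from 1913 to 2085 in WT and from 2738 to 2996 in KSR23. Ctsl made up 27.6% to 31.6% of that sum in WT and 35% to 43.3% in KSR23, whereas Ctsb made up 18.7% to 20.8% and 17.5% to 20.1%.

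The mice of a group varied in different ways for different genes. After the group mean was subtracted from log2 CPM, Ctsh and Ctss moved most alike (Pearson r = 0.92 over 10 libraries) and Ctsa and Ctsl least alike (r = -0.45), with a median r of 0.31 over the 45 pairs. In KSR23 replicate 5, Ctss deviated by -0.50 log2 units, Ctsh by -0.32 and the mean of 13 macrophage markers by -0.40, while Ctsl deviated by 0.15. In WT replicate 3 the deviations were 0.46 for Ctss, 0.25 for Ctsh and 0.11 for the macrophage mean. Over the 10 libraries the correlation with the macrophage mean was 0.91 for Ctsh, 0.81 for Ctss, 0.81 for Ctsd, 0.46 for Ctsb and 0.45 for Ctsa. For the other 5 genes it was 0.22 (Lamp1), 0.11 (Ctsc), 0.10 (Lamp2), -0.05 (Ctsz) and -0.36 (Ctsl). These correlations are descriptions, since values of a library share its depth and scaling. They also lean on KSR23 replicate 5, since in the other libraries the macrophage mean deviated by only -0.14 to 0.14. Correlations without this replicate were not computed.

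**Figure D4:**
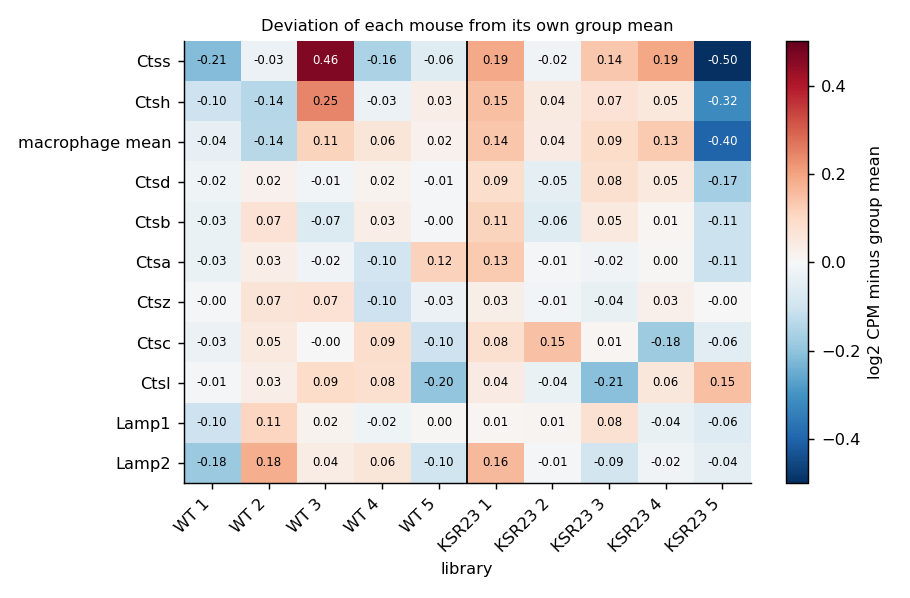
Deviation of log2 CPM from the mean of the mouse's own group, for the 10 genes and the mean of 13 macrophage markers, with WT libraries left and KSR23 libraries right of the line. Ctss, Ctsh and the macrophage mean are lowest in KSR23 replicate 5 (-0.50, -0.32 and -0.40), where Ctsl is above its mean (0.15).

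Macrophage markers moved with the cathepsins between the groups as well. Of 13 such markers, 11 rose and 1, C1qa, fell, with a median log2 FC of 0.73. Cd14, a lipopolysaccharide co-receptor, was the largest rise at 1.85, and Cd68, a lysosomal glycoprotein of macrophages, rose from 14 ± 1.02 to 21.1 ± 3.05 CPM (log2 FC 0.59, edgeR adjusted p = 0.000348). Adgre1, which encodes F4/80, had a log2 FC of 0.55 (edgeR adjusted p = 0.0054) with overlapping groups, whereas C1qa, a complement component, fell by 0.80 (edgeR adjusted p = 4.75e-07). C1qb and C1qc, which encode the other chains of the same component, did not fall with it. They rose by 0.80 (edgeR adjusted p = 2.47e-06) and 0.71 (edgeR adjusted p = 1.74e-05), with groups apart for both. The summed level of the 13 markers was 435 to 532 CPM in WT and 490 to 793 CPM in KSR23, with KSR23 replicate 5 at the low end. Of 8 neutrophil markers 6 rose, and their sum ran from 12.6 to 44.6 CPM in WT and from 42.7 to 432 CPM in KSR23, where the highest library, replicate 3, stood apart from the others (at most 100 CPM). No marker of either list was at 0 in all libraries. The part of these cells in the cathepsin values was not tested. With KSR23 replicate 3 left out, the log2 FC of each of the 10 genes kept its side of the threshold.

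Genes of the MHC class II pathway, in which cathepsin S works, were higher too. All 6 tested genes of the invariant chain and MHC class II list rose, with a median log2 FC of 1.85. Cd74, the invariant chain itself, went from 22.1 ± 3.88 to 98.5 ± 26.8 CPM (SD, n = 5 each), a log2 FC of 2.15 or 4.44-fold (edgeR adjusted p = 1.05e-08). H2-Eb1, a class II beta chain, had a log2 FC of 1.89 (edgeR adjusted p = 1.29e-07). Of the 9 lymphocyte markers, 6 could be tested, of which 1 rose, 1 fell and 4 were not called. The shares over all tested genes were 16.2% higher and 14.8% lower. Ptprc, the pan-leukocyte antigen CD45, rose with overlapping groups (log2 FC 0.69). Cd3e, a T-cell receptor component, fell by 1.5. Other T-cell markers did not fall with Cd3e. Cd4 had a log2 FC of 0.36 (edgeR adjusted p = 0.507). Cd3d (0.11 CPM in WT, 0.446 in KSR23) and Cd8a (0 and 0.0787 CPM) were too low to be tested. For both, every KSR23 mouse was above every WT mouse, which was so for 10.7% of all tested genes. The Cd8a mean in KSR23 was no higher than what 3 counts were worth in these libraries (0.0519 to 0.179 CPM), so its separation rests on few reads.

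Among all tested genes, the 3 whose log2 CPM followed Ctsb most closely over the 10 libraries were Mapkapk2 (r = 0.990), Clu (r = 0.987) and Cxcl16 (r = 0.986). For Ctss they were Ptk7 (r = 0.989), H2-T23 (r = 0.989) and Ctsh (r = 0.987). Much of such likeness is the difference between the groups that these genes have in common.

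The other members of the cathepsin family were mostly low or not detected. Of 15 listed, 9 had no count in any library. Ctsw, a cathepsin of cytotoxic lymphocytes, rose from 0.258 ± 0.0595 to 1.07 ± 0.255 CPM with groups apart (log2 FC 2.01, edgeR adjusted p = 6e-05). Ctsf rose from 22.9 ± 2.14 to 30.4 ± 5.66 CPM with overlapping groups (log2 FC 0.41, edgeR adjusted p = 0.00799). Ctse, an endosomal aspartic protease, was called higher (log2 FC 1.48, edgeR adjusted p = 0.0185), but KSR23 replicate 3 at 50.1 CPM stood apart from the other KSR23 mice at 8.88 to 13 CPM, and without it the log2 FC was 0.73 and the call was lost (edgeR adjusted p = 0.0657). Ctsk, known from osteoclasts, had a log2 FC of 0.04 (95% interval -0.19 to 0.26), and Ctso one of 0.14 (-0.04 to 0.32). Ctsg, a neutrophil granule protease, was too low to be tested, at 0.195 ± 0.185 CPM in WT and 0.457 ± 0.613 CPM in KSR23.

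Of 9 listed cathepsin inhibitors, 5 were tested, 2 rose and 1 fell (2 fell without WT replicate 2). Over all tested genes, 16.2% were called higher and 14.8% lower. Cst3, cystatin C, the main secreted inhibitor, was at 255 ± 20.2 CPM in WT and 227 ± 9.59 CPM in KSR23 with a log2 FC of -0.17 (edgeR adjusted p = 0.0606). Cstb, the cytosolic cystatin B, had a log2 FC of -0.08 (edgeR adjusted p = 0.461). The risers were of low level: Serpina3g went from 1.65 ± 0.671 to 5.4 ± 1.15 CPM (log2 FC 1.70, edgeR adjusted p = 2.83e-05), and Stfa1, a stefin of myeloid cells, from 1.85 ± 0.861 to 10.9 ± 12.2 CPM, with KSR23 replicate 3 at 32.6 CPM. Without replicate 3, the KSR23 mice had Stfa1 between 3.61 and 7.66 CPM, above all WT mice. Cst6, an inhibitor of cathepsins and legumain, fell by 1.47 on the log2 scale from about the same low level (edgeR adjusted p = 0.00588).

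Of 36 genes on the list of other lysosomal hydrolases, 10 rose and 6 fell, with a median log2 FC of 0.10. Over all tested genes, 16.2% were called higher and 14.8% lower, with a median of -0.01. The list also held Psap, Gm2a and Npc2, which are not hydrolases, and Npc2 was among the risers (log2 FC 0.53, edgeR adjusted p = 9.53e-06). Lgmn, legumain, the asparaginyl protease that processes cathepsins, rose most, from 44.6 ± 2.70 to 94.4 ± 16.7 CPM (log2 FC 1.08, edgeR adjusted p = 1.19e-07), and Aga, a glycoprotein-degrading amidase, fell by 0.42 (edgeR adjusted p = 0.000262). The number that fell was 3 without WT replicate 2 or without KSR23 replicate 5, and 1 with libraries scaled by their totals alone. Of 21 tested genes of the lysosome membrane other than the LAMPs, 9 rose and 3 fell (1 without WT replicate 3, WT replicate 4 or KSR23 replicate 4, or with library totals alone), with a median log2 FC of 0.22. Cd63, a tetraspanin of late endosomes, rose from 315 ± 11 to 375 ± 13.4 CPM (log2 FC 0.25, edgeR adjusted p = 0.00315). Laptm5, of blood-cell lysosomes, rose by a log2 FC of 0.77 and Slc11a1, a metal transporter of phagocytes, by 0.74, while Mfsd8, which is mutated in a lysosomal storage disease, fell by 0.72. The 16 tested subunits of the vacuolar ATPase, which acidifies the lysosome, gave 1 rise and 1 fall and a median of -0.04. With single libraries left out there were 0 to 2 rises and 1 to 2 falls, the rise being lost without WT replicate 1, 2 or 4 or KSR23 replicate 3 or 5.

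Genes that deliver enzymes to lysosomes moved in both directions, as did all tested genes, of which 16.2% were called higher and 14.8% lower. Of 9, 2 rose and 3 fell, the falls being Gnptab, Sort1 and Gga2 (1 with library totals alone). Gnptab, the enzyme that makes the mannose 6-phosphate tag, fell from 22.3 ± 1 to 14.8 ± 0.815 CPM with groups apart (log2 FC -0.59, edgeR adjusted p = 1.57e-05). Of the receptors for this tag, Igf2r had a log2 FC of 0.02 (edgeR adjusted p = 0.923) and M6pr rose by 0.18 (edgeR adjusted p = 0.0399), a call that was lost in 10 of the 18 alternative fits, so that the number of risers was 1 when any WT replicate or KSR23 replicate 1, 2 or 3 was left out. None of the 5 lysosome transcription factors was called (1 at an adjusted p under 0.05 without WT replicate 1). Tfeb was at 7.40 ± 1.43 and 7.72 ± 0.774 CPM with a log2 FC of 0.06 (edgeR adjusted p = 0.761). Tfe3, nearest of the 5 to the threshold, had a log2 FC of 0.25 (edgeR adjusted p = 0.0507) with overlapping groups. Summed over the 5, CPM ran from 45.5 to 53.5 in WT and from 53.6 to 57.6 in KSR23. Of 19 tested autophagy genes 5 rose and 1 fell (3 rose without WT replicate 3 or KSR23 replicate 1, and the fall was lost without either of these, WT replicate 1 or KSR23 replicate 2). Sqstm1, the autophagy receptor p62, rose from 145 ± 8.29 to 200 ± 16.6 CPM (log2 FC 0.46, edgeR adjusted p = 5.16e-05).

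**Figure D5:**
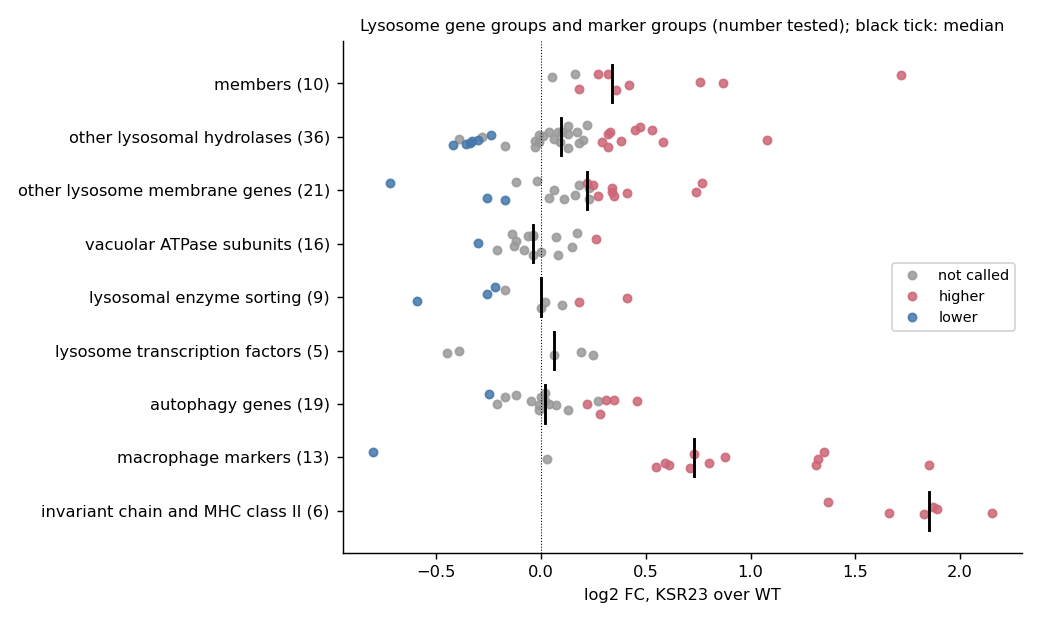
The log2 FC of KSR23 over WT for each tested gene of the lysosome and marker lists, with the number tested in brackets; red is higher, blue lower and grey not called at an adjusted p of 0.05, and the black tick is the list's median. The median is 0.34 for the 10 cathepsin and LAMP genes, 0.10 for the list of other hydrolases, -0.04 for vacuolar ATPase subunits and 1.85 for the class II list.

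The substrates of the cathepsin B and L reactions were among the most abundant transcripts of the organ. Prss2, the major mouse trypsinogen, rose from 36681 ± 3612 to 47404 ± 4614 CPM (log2 FC 0.37, edgeR adjusted p = 0.0181), and Prss3 rose by a log2 FC of 0.93 and Try5 by 0.70. Try10 fell by 0.97, and Prss1 was at 10581 ± 425 and 10216 ± 1445 CPM (log2 FC -0.05, edgeR adjusted p = 0.766). The inhibitor gene Spink1, listed under its older mouse symbol Spink3, had a log2 FC of 0.06 (edgeR adjusted p = 0.786). Of the 7 genes of this list 4 rose, or 2 without WT replicate 2 or WT replicate 5. These trypsinogens are near-identical copies, and reads that aligned to several of them were given to none, so their values are uncertain. Over the whole library, the share of alignments that were not unique differed between the groups (49.6% to 53.7% in WT, 38.5% to 42.5% in KSR23). How much of it lay in the trypsinogens was not measured. Other acinar transcripts went down over the same comparison, with 9 of 10 acinar markers lower and a summed level of 180483 to 195323 CPM in WT and 108904 to 136382 CPM in KSR23, while 6 of 7 duct markers rose and 5 of 6 islet markers fell (3 without KSR23 replicate 2). The part of a shifted cell make-up in the cathepsin differences was not tested.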

How the data were processed

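Pancreas RNA was measured in 5 WT and 5 KSR23 libraries. Per the labels, cDNA was made from 100 pg of total RNA with 15 PCR cycles, libraries were amplified with 12 further cycles, and 75 bp reads were sequenced. The authors aligned reads to mm10 with TopHat2 (2.1.0) and deposited raw counts per gene from HTSeq (0.6.1p1), as their processing notes give it. Their methods name annotated protein-coding genes and a strict intersection of reads with transcript models. The annotation release and the strand setting are not given in the sources used here. Alignments that were not given to a gene (not unique, without a feature or ambiguous, 42.3% to 57.2% of all) were left out of library sizes and tests. Most of these were alignments that were not unique (38.5% to 53.7% of all), which can lie in genes. Molecular identifiers are not named, so a limit from counts covers counting error alone, and a floor of 3 counts was worth 0.0519 to 0.179 CPM.

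A gene was tested where no library had under 5 counts (13882 of 24062 genes). Libraries were scaled by TMM and the groups compared by the quasi-likelihood F test of edgeR 4.0.16 in R 4.3.3, with Benjamini-Hochberg adjustment over all tested genes. Log2 CPM used a prior count of 2. The standard error was the log2 FC divided by the square root of F. Exact permutation tests ran over all 252 splits. Groups and replicate numbers came from the sample titles, and no source ties a number to a litter or day, so p-values measure the spread between these libraries. Which of the littermates shared a litter is not given, so the main test compared the groups without litters. Counts of replicates differed far beyond sampling noise, with a chi-square per degree of freedom of at least 11.9. Per-kb levels used the longest best-supported coding transcript of GENCODE M21. Windows of 75 bases were matched exactly to all annotated transcripts.

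The genes, the lists and the motifs were chosen with earlier results of these data known. Named genes were the 10, every other cathepsin with counts, from each list up to 2 called genes with the largest rise and 2 with the largest fall, a set picked by role (Cst3, Cstb, Tfeb, M6pr, Igf2r, Lgmn, Cd63, Cd74, Sqstm1, Cd68, Adgre1, Spink1, Prss1 and Prss2), Il23a and Il12b, and the 3 genes most correlated with Ctsb and with Ctss. Genes that overlap any of the 10, and C1qb, C1qc, Tfe3, Psap, Gm2a, Npc2, Cd3d, Cd4 and Cd8a, were named after their values were seen. The granule proteases matured by cathepsin C gave 1 tested gene of 6, not called. Alternatives tried were DESeq2 1.42.0, edgeR's likelihood ratio test, RLE factors, library totals alone, scaling without the 50 highest genes, 2 other filters, the replicate number as a block, a prior count of 0.5, and leaving out each library. Jejunum data were not analysed here.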

Additional observations from a re-analysis of the deposited data

Results flagged for a closer look

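In 15 of 144 groups of 5 mice, the highest or lowest mouse lay far from the other 4 by Dixon's criterion, where chance gives about 1 in 20 groups, or 7.2 of 144. Among the cathepsins, Ctsh in KSR23 replicate 5 was low, at 46.9 CPM against 60.3 to 64.9 in the others, and Ctss in WT replicate 3 was high, at 18.6 CPM against 11.6 to 13.2. In the same KSR23 replicate 5, Laptm5 was low at 39.2 CPM (others 56.9 to 59.7) and Cd68 was low at 15.9 CPM (others 21.2 to 23.4). In the same WT replicate 3, Fcgr1, an antibody receptor of macrophages, was high at 2.46 CPM (others 1.45 to 1.58), and Sox9, a duct marker, was low at 49.4 CPM (others 65.1 to 68.4).

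KSR23 replicate 3 was high for Ctse at 50.1 CPM (others 8.88 to 13), for Stfa1 at 32.6 CPM (others 3.61 to 7.66) and for the neutrophil genes Ltf at 78.9 CPM (others 5.95 to 21.3) and S100a9 at 73.4 CPM (others 7.76 to 16.6). Ctsg in WT replicate 4 was at 0.516 CPM, from 16 counts, against at most 0.149 in the others. Il12b in WT replicate 2 was at 0.24 CPM, from 7 counts, against at most 0.0645. Igf2r in KSR23 replicate 4 was at 19.8 CPM (others 14.1 to 15.3), Ulk1 in WT replicate 5 at 18.8 CPM (others 15.3 to 15.9) and Cftr in WT replicate 1 at 1.51 CPM (others 0.335 to 0.597).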

How the results depend on the processing

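Over 18 alternative fits, 10 of which left out a library, 7 to 9 of the 10 genes were called higher and 0 lower. Ctss kept a log2 FC of 1.66 to 1.85, Ctsl 0.82 to 0.97, Ctsh 0.71 to 0.86 and Ctsb 0.38 to 0.51, each past the threshold in all 18, as were Ctsa, Ctsd and Lamp2. Ctsc passed with library totals alone (log2 FC 0.25, adjusted p = 0.015), and its log2 FC was 0.12 to 0.20 with single libraries left out. Ctsz ranged from 0.15 to 0.20 with single libraries left out. With library totals alone, 1164 genes were lower in place of 2049 and 3072 higher in place of 2250 and the median over all genes was a log2 FC of 0.09. Lists with few calls moved by over 1.5 times. With library totals alone, falls numbered 1 for other hydrolases, 1 for other membrane genes, 1 for sorting, 0 for vacuolar ATPase, 0 for autophagy and 3 for islet markers, and rises 2 for vacuolar ATPase and 2 for lysosome transcription factors. Rising cathepsin inhibitors numbered 5 under both other filters. Rising lymphocyte markers numbered 2 with filterByExpr and 3 without a filter. DESeq2 gave 2 rises and 2 falls for vacuolar ATPase, 2 falling inhibitors and 1 rising transcription factor. The same replicate number did not mark mice that deviated together (r from -0.111 to 0.0661 over 5 pairs, none above 0.1, 1 of 5 WT mice closest to its own number). With the replicate number as a block, Ctsz had a log2 FC of 0.18 and was not called (adjusted p = 0.0699), and the other 9 genes kept their side of the threshold. The block left 2 rising trypsinogens, 1 rising sorting gene, 1 falling membrane gene, 0 falling autophagy genes and 1 rising transcription factor. Small values changed sign. Cstb was 0.02 and Prss1 0.04 with library totals alone. With single libraries left out, the ranges were -0.09 to 0.05 for Igf2r, -0.02 to 0.15 for Tfeb, -0.04 to 0.20 for Spink3, -0.02 to 0.10 for Ctsk and -0.10 to 0.02 for Prss1. Depth limits the genes under 1 CPM, such as Ctsg, and does not limit the 10. The causes were not tested.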
